A study of Mus musculus with 6 samples.

Results

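The colony-stimulating factor genes Csf1 and Csf2, the interleukin gene Il34 and the receptor genes Csf1r, Csf2ra and Csf2rb were taken by symbol, as 6 of the 31053 genes counted, and described across the cell classes around the mouse brain, with attention to stromal classes that could supply microglia and border macrophages. Single-cell RNA sequencing (10x Genomics droplets, polyA RNA) had been made of C57BL6 mice in 6 libraries. The 4 cortical surface libraries (tissue label Brain) hold the leptomeninges and the superficial brain, and the 2 bone-associated libraries (Dura/Skull) hold the connective tissue taken from the skull, such as the dura. The labels name no transgene and no treatment, and the mice were wild-type adults that had not been perfused. Each library pools several animals of either sex, so the library is the replicate. The p-values set differences against the spread between pooled libraries, which the edgeR tests below estimate in part from other genes. Live nucleated cells had been sorted with the dyes DRAQ5 and propidium iodide before loading.

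Csf1 and Il34 encode secreted proteins with little sequence in common that bind the same receptor tyrosine kinase, encoded by Csf1r, on which microglia and most tissue macrophages depend for survival. In the brain Il34 is best known as a neuronal product and Csf1 as a product of glia, while endothelial cells and fibroblasts supply Csf1 in many tissues. Csf2 encodes GM-CSF, a cytokine of activated lymphocytes that acts on granulocytes, monocytes and dendritic cells through a receptor made of the ligand-binding chain Csf2ra and the common beta chain Csf2rb, which the receptors for IL-3 and IL-5 also use.

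Of 8680 cells kept, 7794 fell into clusters that could be named from marker genes, and 886 stayed unnamed. The fibroblast-type cells are called mesenchymal-like, and a second stromal class is called Ccl19 Colec11 stromal cells after the genes that lead it. The latter also carry pericyte markers, in the cortical surface Abcc9 in 73.7% and Kcnj8 in 97.9% of cells. Among the classes described here each listed marker had at least 1 UMI (unique molecular identifier, 1 counted transcript), except in the neuron-like class, where 7 of 8 did. In the cortical surface ILC2-like class (group 2 innate lymphoid cells) only 3 of 8 markers were found in at least 20% of the cells. Kept cells numbered 739 to 2201 per cortical surface library and 956 and 2452 in the bone-associated libraries, and 11 cell barcodes occurred in more than 1 library. Cortical surface libraries 3 and 4 stood apart. Hemoglobin genes made up 84.6% and 71.9% of all their UMIs, against under 1% in the other 4 libraries. In kept cells the shares were 17.9% and 11.8%, again against under 1%. Libraries 3 and 4 also held no cells that were named VSMC-like (vascular smooth muscle). Levels are in CPM, the UMIs of a gene per 1000000 UMIs of a class in a library with at least 10 of its cells, and are given per library because of that difference.

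On the mouse GRCm38 build Csf1 lies at chr3:107741048-107760469 and Il34 at chr8:110741829-110805924, both on the minus strand. Csf2 lies at chr11:54247271-54249667 and Csf2ra at chr19:61223957-61228429, also on the minus strand, Csf2rb at chr15:78325752-78353847 on the plus strand, and Csf1r on chromosome 18. In all kept cells Csf1 had 1848 UMIs, Il34 3504, Csf1r 37650, Csf2 3221, Csf2ra 4885 and Csf2rb 3714. No other counted gene overlaps these genes on the same strand. Csf2rb has a near copy, Csf2rb2, and shares 12.3% of the 50-base windows of its transcripts with it, so how the counting split reads between the pair is uncertain.

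Among the cell classes captured here, Il34 was a transcript of the mural and stromal classes. In the cortical surface preparation it was highest in the Ccl19 Colec11 stromal cells, with 675, 669, 617 and 653 CPM in libraries 1 to 4 (653 ± 26.2, SD, n = 4, 243 cells). Pericyte-like cells, the mural cells of capillaries, held 521, 398, 298 and 433 (413 ± 92.3, n = 4, 252 cells). Mesenchymal-like cells held 250, 254, 218 and 159 (220 ± 44.0, n = 4, 264 cells). The VSMC-like cells, found in libraries 1 and 2, followed with 64.7 and 50.3. The library ranges of these 4 classes did not meet, and libraries 3 and 4 kept the same order of the first 3 classes as libraries 1 and 2. An unnamed cluster in which 6 of the 7 VSMC markers led is outside the VSMC-like class, and its higher Il34 level is given below. Together the Ccl19 Colec11 stromal, mesenchymal-like and pericyte-like cells held 41.4%, 22.7% and 18.2% of the Il34 UMIs of the cortical surface and were a smaller part of the cells (4.61%, 5.01% and 4.78%). Neurons were barely sampled: the neuron-like class had 27 cells, 0.512% of the cortical surface cells, and 1 Il34 UMI. The shares therefore describe the captured cells and do not weigh these classes against neurons as a source of Il34.

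Endothelial-like cells of the cortical surface, neighbours of the pericytes, had 7 Il34 UMIs in 467 cells (1.39 ± 2.00 CPM, n = 4), and T-like cells had 0 in 317 cells. These classes differ in depth. With each cell thinned to 1500 UMIs, which removes differences in depth, Il34 was seen in 66.5% of the Ccl19 Colec11 stromal cells (95% exact binomial interval 60.2 to 72.4), 49.0% of pericyte-like and 29.1% of mesenchymal-like cells, against 95.9%, 73.4% and 70.8% unthinned. In T-like cells, which should lack the gene, the share was 0 of 317 (upper bound 1.16%), at a median of 6158 UMIs per cell against 5361 in the Ccl19 Colec11 stromal cells. These intervals cover counting error only.

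Within cortical surface libraries, Il34 was higher in the Ccl19 Colec11 stromal cells than in mesenchymal-like cells by 1.40 ± 0.17 (log2 fold change ± SE, adjusted p = 8.52e-16, 4 of 4 libraries) in edgeR's quasi-likelihood test on UMIs summed per library and class, with Benjamini-Hochberg adjustment over all genes tested. A gene was called at an adjusted p under 0.05 and a log2 fold change of at least 1.3. In that comparison 3 of the 4 members tested were called, against 18.7% of all genes tested. Without cortical surface library 4 the Il34 difference was 1.29, just under the fold limit. Pericyte-like cells exceeded mesenchymal-like cells in 4 of 4 libraries by 0.73 ± 0.20 (adjusted p = 0.00149), short of the fold limit, and 2 of 4 members were called there (16.1% of all genes). Endothelial-like cells were lower than mesenchymal-like cells by -6.57 ± 0.35 (adjusted p = 4.86e-78, lower in 4 of 4 libraries), where 3 of 4 members were called against 25.7% of all genes.

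The bone-associated preparation had less Il34 in its fibroblast-type cells. Mesenchymal-like cells held 44.0 and 51.7 CPM in its 2 libraries (47.8 ± 5.43, n = 2, 282 cells), below each of the 4 cortical surface libraries. The cortical surface cells were higher by 2.14 ± 0.32 (log2, edgeR, adjusted p = 3.50e-06), a 4.41-fold difference, and by 2.35 and 1.89 with cortical surface libraries 1 and 2 or 3 and 4 alone. Of the 4 members tested in this comparison 3 were called (14.6% of all genes tested). Of the pericyte markers Vtn and Ndufa4l2 moved with this difference: the sum of all 7 in mesenchymal-like cells was 4506 to 8270 CPM in the cortical surface and 241 and 273 in the bone-associated libraries, with UMIs for 7 of 7 markers in both, most of it Vtn (4410 to 8100 CPM against 174 and 195), followed by Ndufa4l2 (96.3 to 159 against 36.2 and 49.3). Abcc9 and Kcnj8, which encode subunits of a potassium channel, were lower in the cortical surface mesenchymal-like cells, with at most 3.09 and 2.26 CPM against at least 15.8 and 3.52 in the bone-associated ones, while Higd1b, Cox4i2 and Art3 stayed at or under 7.04 in both with ranges that met. Some mesenchymal-like cells had no UMI of the 6 pericyte markers other than Vtn. In them Il34 stood at 279, 271, 307 and 140 CPM in the cortical surface and 59.6 and 47.0 in the bone-associated libraries. These ranges did not meet either, but they rest on few counts. The 140 of cortical surface library 4 came from 8 Il34 UMIs in 13 cells, and the 59.6 of bone-associated library 1 from 19 UMIs in 20 cells. Mesenchymal-like cells with a UMI of these 6 markers held 229, 238, 92.9 and 183 Il34 CPM in the cortical surface. In the bone-associated libraries such cells held 24.0 and 59.0. The split leaves out Vtn, which made up most of the marker difference, so it does not bear on Vtn. The class was clustered separately in each preparation and is led by other genes in each: Slc22a6, Slc6a13 and Lum in the cortical surface, Comp and Cilp2 or Apod and Inmt in the bone-associated preparation.

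The Ccl19 Colec11 stromal cells of the bone-associated libraries held 183 and 299 Il34 CPM (241 ± 82.3, n = 2, 110 cells), against the 617 to 675 of the cortical surface, and the ranges did not meet. An exact two-sided permutation test gave p = 0.133 (adjusted over 7 such tests, 0.233), the smallest that 4 against 2 libraries can give. Bone-associated pericyte-like cells, at 348 and 218, overlapped those of the cortical surface (exact permutation p = 0.267, adjusted 0.333). Bone-associated VSMC-like cells held 67.4 and 94.7 Il34 CPM. They were 2 clusters: 1 led by Casq2 and Olfr558 (153 cells) held 156 Il34 CPM over its cells, and 1 led by Timp4 and Plin4 (270 cells) held 48.6. An unnamed cortical surface cluster of 75 cells led by Agt and Olfr558 held 271. In it 6 of the 7 VSMC markers led, so the cortical surface VSMC-like levels leave out cells with more Il34. In the bone-associated preparation VSMC-like cells, 12.4% of its cells, held the largest share of the Il34 UMIs, 36.7%. The Ccl19 Colec11 stromal cells, 3.23% of its cells, held 30.4%. Schwann-like cells, the glia of peripheral nerves, held 37.5 and 17.7 CPM on 8 UMIs in all.

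**Figure D1:**
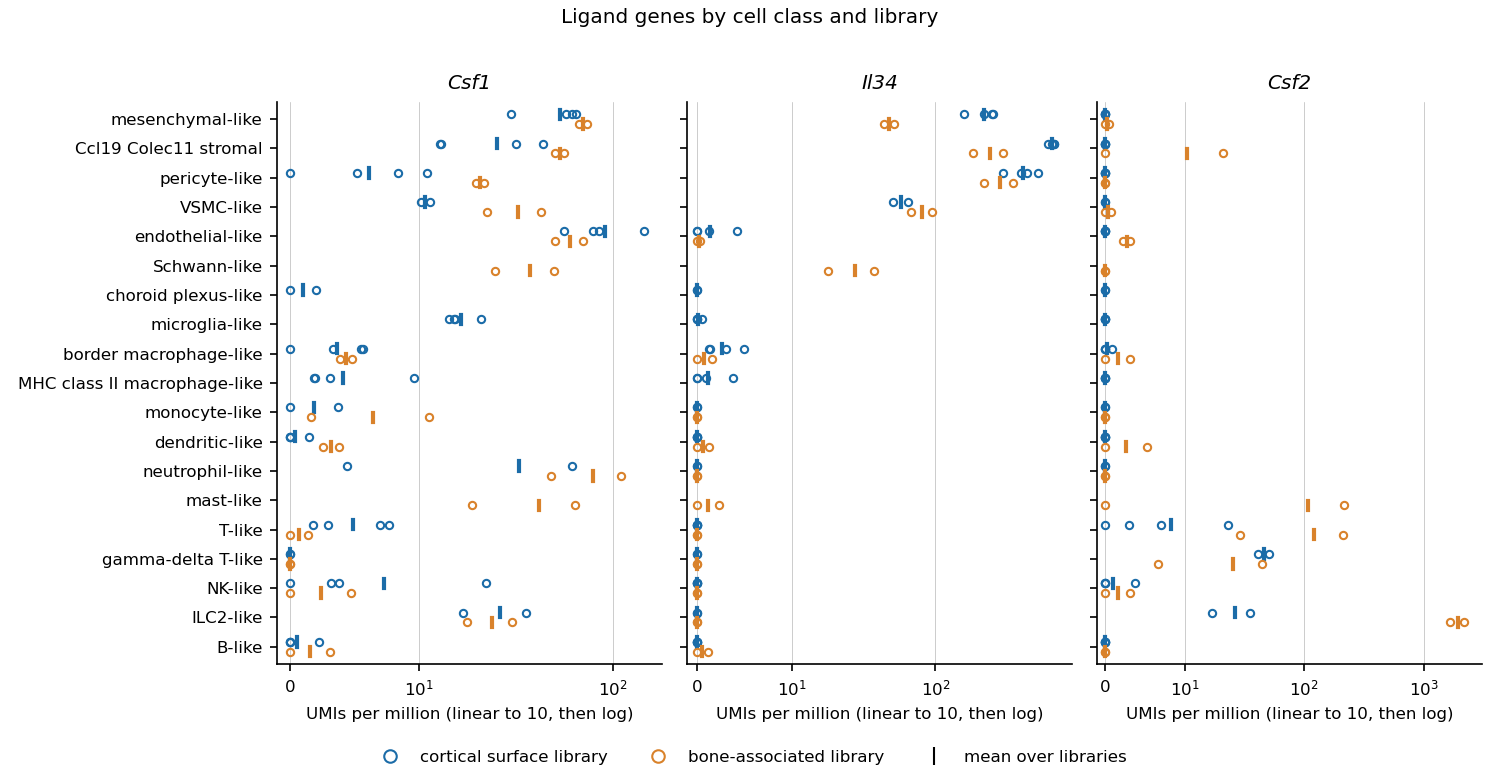
Levels of the ligand genes Il34, Csf1 and Csf2 (x axes, CPM, linear near 0 and then logarithmic) in each cell class (rows), with 1 circle per library (blue, cortical surface; orange, bone-associated) and a bar for the mean. Il34 sits in the stromal and mural rows, Csf1 is spread over endothelial-like, mesenchymal-like and some immune rows, and Csf2 peaks in the bone-associated ILC2-like cells at 1666 and 2182.

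Csf1 had another distribution, with endothelial-like cells first in the cortical surface among the classes with enough cells for a level. They held 145, 79.1, 85.1 and 55.9 CPM (91.3 ± 38.0, n = 4, 467 cells), and 31.3% of the Csf1 UMIs of that preparation, with 8.86% of its cells. Mesenchymal-like cells held 57.1, 61.7, 64.2 and 29.7 (53.2 ± 15.9), so that the ranges of the leading classes met. Endothelial-like cells were higher in 4 of 4 libraries, by 0.66 ± 0.24 (log2, edgeR, adjusted p = 0.0174), under the fold limit. Glia other than microglia were barely sampled, and no astrocyte class was named. The oligodendrocyte-like class had 17 cells, 0.322% of the cortical surface cells, too few for a level. It held 14 Csf1 UMIs, 1.74% of those of the preparation. The shares therefore do not weigh endothelial-like cells against such glia as a source of Csf1.

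Csf1 differed between the clusters of the endothelial-like class. The cluster led by Slc38a5 and Vwf, the latter a gene of larger vessels and veins, held 216, 131, 142 and 96.9 Csf1 CPM in libraries 1 to 4 (227 cells). The cluster led by Mfsd2a, a lipid transporter of barrier capillaries, held 36.8, 33.3, 29.9 and 13.6 (240 cells). The first was higher in 4 of 4 libraries and the ranges did not meet; the clusters were defined on the same cells, so no test is given. In the bone-associated preparation the 3 endothelial-like clusters were close together. The cluster led by Btnl9 held 69.9 and 50.1 CPM in the 2 libraries. That led by Slc38a5 and Slco1a4 held 69.9 and 55.6, and that led by Selp 70.9 and 45.9. Of these, the Slc38a5 cluster had Mfsd2a among its top genes and the Selp cluster had Vwf. The shared gene Slc38a5 therefore does not pair clusters of the 2 preparations. The unnamed clusters led by Gkn3 and Cytl1 held 34.4, 138 and 43.9 in cortical surface libraries 1, 2 and 4 and 32.9 and 45.0 in the bone-associated libraries.

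In the other cortical surface stromal classes Csf1 was lower. Pericyte-like cells had 8 Csf1 UMIs in 252 cells, at 5.16, 10.98, 0 and 8.33 CPM, and fell below mesenchymal-like cells by -2.89 ± 0.48 (log2, edgeR, adjusted p = 2.61e-08, 4 of 4 libraries). Il34 and Csf1 therefore stood in opposite order in these 2 classes, Il34 at 413 against 220 and Csf1 at 6.12 against 53.2 CPM. The Ccl19 Colec11 stromal cells, first for Il34, held 43.7, 12.98, 31.6 and 12.8 Csf1 CPM, lower than mesenchymal-like cells by -1.27 ± 0.32 (adjusted p = 0.000516), short of the fold limit.

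Between preparations Csf1 was not called in mesenchymal-like cells. The bone-associated libraries held 73.9 and 66.5 CPM, and the cortical surface minus bone-associated difference was -0.36 ± 0.32 (log2, edgeR, adjusted p = 0.549). Bone-associated endothelial-like cells held 70.1 and 50.3, the first within and the second just below the 55.9 to 145 of the cortical surface libraries (difference 0.53 ± 0.27, adjusted p = 0.276). In the Ccl19 Colec11 stromal cells the bone-associated levels of 55.9 and 50.3 lay above the 4 cortical surface libraries (exact permutation p = 0.133, adjusted 0.233). In the bone-associated preparation mesenchymal-like cells held 27.6%, endothelial-like 21.2% and VSMC-like 14.6% of the Csf1 UMIs. They were 8.27%, 13.1% and 12.4% of its cells.

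Immune cells also held Csf1. Bone-associated neutrophil-like cells had 48.1 and 110 CPM (80 cells), and the cortical surface neutrophil-like cells of libraries 3 and 4 had 61.2 and 4.38. Microglia-like cells held 16.4 ± 2.97 (n = 4, 509 cells), more than border macrophage-like cells (3.62 ± 2.63), with a border macrophage minus microglia difference of -1.80 ± 0.51 (log2, edgeR, adjusted p = 0.00276, lower in 4 of 4 libraries). An unnamed cluster of 180 cortical surface cells led by Il1a, in which all 9 microglia markers lead too, held 47.2; joined to the microglia it widened that difference to -2.80.

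Csf2 was found mainly in the ILC2-like cells of the bone-associated preparation, tissue lymphocytes known for type 2 cytokines. They held 1666 and 2182 CPM (1924 ± 365, n = 2, 187 cells), 83.3% of the Csf2 UMIs of that preparation, and Csf2 was seen in 71.1% of them. It was seen in 0 of 343 B-like cells of the same libraries (median 4785 UMIs per cell, against 6350 in the ILC2-like cells). Cortical surface ILC2-like cells held 16.9 and 35.4 in libraries 3 and 4 (70 cells), with a mean of 44.5 CPM when hemoglobin UMIs, 36.7% of those of the class, are left out. Library 2 had only 8 such cells, too few to enter, and 61 Csf2 UMIs in 3 of them, which makes 825 CPM. The entered libraries of the preparations did not overlap (exact permutation p = 0.333, the smallest that 2 against 2 can give).

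Elsewhere Csf2 rested on few cells. Bone-associated T-like cells held 29.1 and 213 CPM, and 1 cell gave 279 of the 335 UMIs. Mast-like cells held 0 and 215, with 83.5% of their UMIs in 3 cells. Gamma-delta T-like cells held 50.5 and 40.8 in cortical surface libraries 3 and 4 and 6.65 and 43.9 in the bone-associated libraries. Mesenchymal-like cells of the cortical surface had 0 Csf2 UMIs in 264 cells, pericyte-like cells 0 in 252 and endothelial-like cells 0 in 467, against 11 UMIs in 448 bone-associated endothelial-like cells (edgeR, adjusted p = 0.084).

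Csf1r, the receptor for both Csf1 and Il34, was ordered by macrophage class. Microglia-like cells held 4787, 3940, 3534 and 3612 CPM (3968 ± 573, n = 4, 509 cells). Border macrophage-like cells, marked by Mrc1, Pf4 and Cbr2, held 1854, 1828, 1725 and 1833 (1810 ± 58.0, n = 4, 694 cells). MHC class II macrophage-like cells held 915, 966, 1037 and 976 (n = 4, 312 cells), and monocyte-like cells 403 and 494 in libraries 3 and 4 (69 cells). The ranges of these 4 classes did not meet. Unnamed cells, 11.3% of the cortical surface cells, held 19.5% of its Csf1r UMIs. They include the Il1a-led cluster of 180 cells in which all 9 microglia markers lead, so the microglia-like levels leave out such cells. Border macrophage-like cells were below microglia-like cells in 4 of 4 libraries, by -0.81 ± 0.12 (log2, edgeR, adjusted p = 8.88e-09), a 1.75-fold difference under the fold limit. That fold includes edgeR's scaling between the summed samples. The CPM carry no such scaling and lie further apart. Of the 5 members tested in that comparison 1 was called, Csf1, against 17.8% of all genes. Monocyte-like cells were below border macrophage-like cells by -1.81 ± 0.15 (edgeR, adjusted p = 3.15e-32), in libraries 3 and 4 only. There 2 of 3 members tested were called against 20.9% of all genes. With 2 libraries per class that p-value rests largely on the spread borrowed from other genes.

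**Figure D2:**
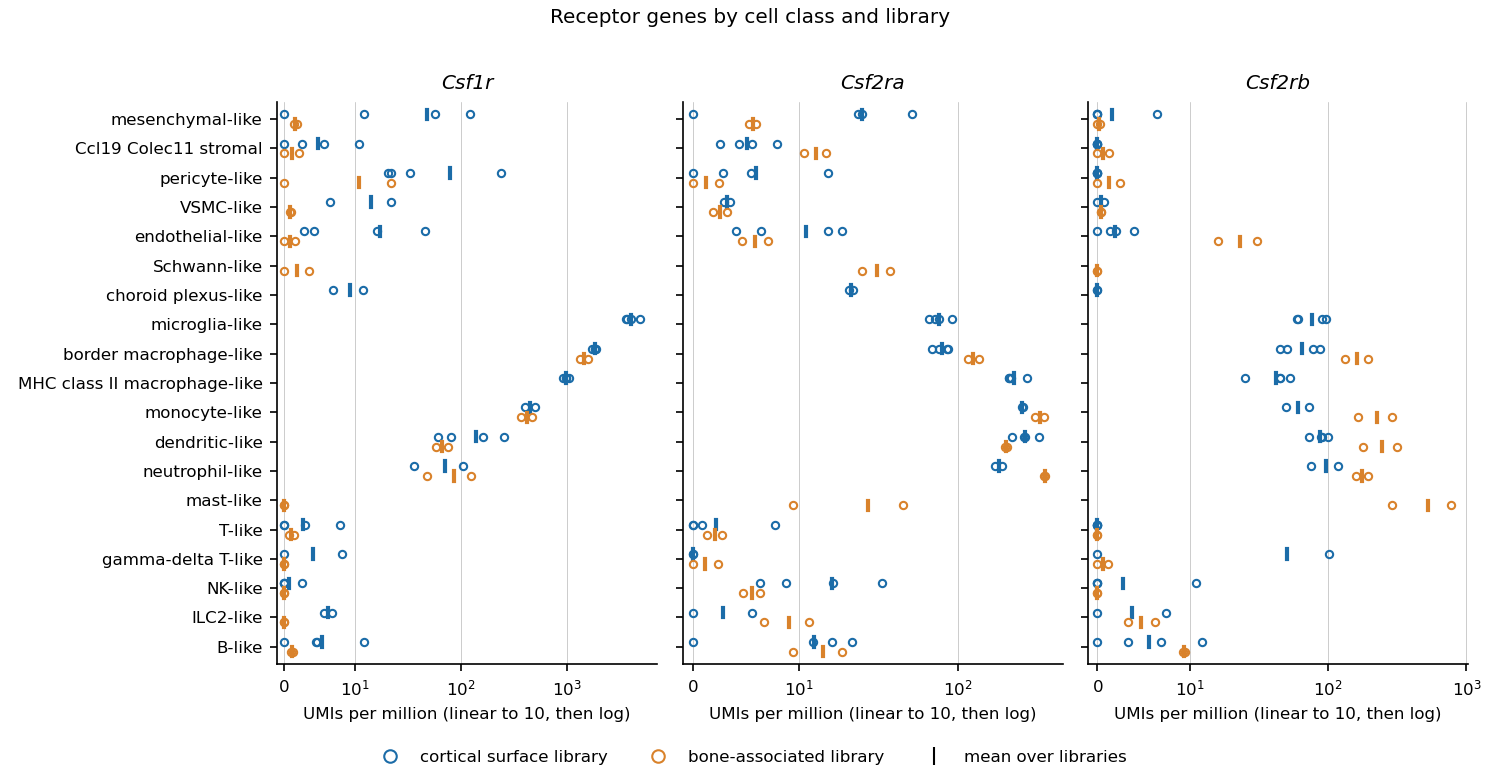
Levels of the receptor genes Csf1r, Csf2ra and Csf2rb (x axes, CPM, linear to 10 and then logarithmic) in each cell class (rows), with 1 circle per library (blue, cortical surface; orange, bone-associated) and a bar for the mean. Csf1r falls from microglia-like (mean 3968) through border macrophage-like (1810) and MHC class II macrophage-like (974) to monocyte-like cells, while Csf2ra is highest in neutrophil-, monocyte-, dendritic- and MHC class II macrophage-like rows.

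Inside the border macrophage-like class Csf1r differed between clusters. The cluster led by Adam33 and Lyve1 (173 cells) held 2247, 2090, 2263 and 2205 CPM in libraries 1 to 4. The cluster led by Ccl7 and Ccl2 (310 cells) held 1800, 1795 and 1893 in libraries 1, 2 and 4, with only 3 cells in library 3. The cluster led by Chp2 and Gpx3 (211 cells, median 1869 UMIs per cell) held 1005, 1606, 1005 and 1309, and 1005, 1606, 1307 and 1483 when hemoglobin UMIs, 23.1% and 11.7% of its UMIs in libraries 3 and 4, are left out. It stayed the lowest in each library where the clusters could be compared; they were defined on the same cells, so no test is given. Unnamed clusters led by Cd300e and Treml4, genes of patrolling monocytes, held 921 CPM over 69 cells of the cortical surface and 885 over 47 bone-associated cells, above the 368 and 468 of bone-associated monocyte-like cells. Bone-associated border macrophage-like cells held 1558 and 1306 (1432 ± 178, n = 2, 113 cells), and the preparations differed by 0.22 ± 0.25 (log2, edgeR, adjusted p = 0.682). The class was 1 cluster in the bone-associated and 3 in the cortical surface preparation. Its least frequent marker was seen in 22.1% and 67.4% of cells. Only the cortical surface had a separate MHC class II macrophage-like class, so the compared classes may not hold like cells.

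Csf1r UMIs also occurred at low level in stromal cells of the cortical surface, unevenly between libraries. Mesenchymal-like cells held 57.1, 12.04, 122 and 0 CPM in libraries 1 to 4, on 72 UMIs, against 1.76 and 1.35 in the bone-associated libraries. Pericyte-like cells held 20.7, 21.96, 237 and 33.3, and in library 3 all 31 UMIs came from 2 of 32 cells. The mesenchymal difference between preparations was called at 4.64 ± 0.79 (log2, edgeR, adjusted p = 2.62e-05), but was 2.58 with at least 1000 genes per cell, 1.84 with up to 20% mitochondrial UMIs and 2.86 without doublet removal. In endothelial-like cells the difference was 4.41 ± 1.23 (adjusted p = 0.0275) on 33 against 2 UMIs. It was not called without either bone-associated library or without cortical surface library 3 or 4 (range 3.10 to 6.96), nor by DESeq2 (adjusted p = 0.106).

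Macrophage transcripts were found in the same stromal classes as these Csf1r counts. In cortical surface mesenchymal-like cells all 10 border macrophage markers had UMIs, summed at 218 to 931 CPM over the libraries, while in the bone-associated ones the sum was 147 and 201 and Cd163, Cbr2 and Folr2 were at 0. The complement genes C1qa, C1qb and C1qc, abundant in macrophages, gave 1523 UMIs in 1487 stromal and endothelial cells of the cortical surface beside 212 Csf1r UMIs. Pooled over these classes and libraries, that was 13.9 Csf1r per 100 C1q UMIs. The pooled ratio was 12.9 in the microglia-like and border macrophage-like cells of the same libraries and 8.44 in T-, B- and NK-like cells. These pools join unlike classes. In library 1 Csf1r and C1q stood at 4787 and 20378 CPM in microglia-like cells. They were at 1854 and 14816 in border macrophage-like and 915 and 11141 in MHC class II macrophage-like cells, which are outside the pool. In mesenchymal-, pericyte- and endothelial-like cells library 3 was highest for both Csf1r and C1q. In Ccl19 Colec11 stromal cells library 3 was highest for C1q, at 134 CPM, but had 0 Csf1r UMIs. Of the 81 cells of those classes with Csf1r, 51.9% also had C1q, against 23.7% of all 1487. In the bone-associated stromal and endothelial cells there were 22 Csf1r and 32 C1q UMIs, 68.75 Csf1r per 100 C1q UMIs. In the border macrophage-like cells of that preparation the ratio was 9.17. T-, B- and NK-like cells of the cortical surface had Csf1r in 1.72% of cells, against 5.45% in the stromal and endothelial classes. Erythroid-like cells, which should lack Csf1r, held 259 and 247 CPM in libraries 3 and 4. Their class includes a sub-cluster of 22 cells split from a mixed cluster, other parts of which carried mainly microglia markers. It is therefore not a clean background, and whether these 22 cells held microglia RNA was not tested. Between classes of the cortical surface, Csf1r was called lower than in mesenchymal-like cells in endothelial-like (-1.78 ± 0.38) and Ccl19 Colec11 stromal cells (-2.52 ± 0.49). The endothelial call was lost without library 1 (-1.19), with libraries 3 and 4 alone (-0.91), thinned to 1500 UMIs (-0.50), with up to 20% mitochondrial UMIs (-1.25), without the replicate block (adjusted p = 0.0690) and by DESeq2 (adjusted p = 0.161), and without doublet removal the difference was 0.0399. The Ccl19 Colec11 stromal call was lost when cells needed 1000 genes (-0.90), and the difference was 0.10 when 20% mitochondrial UMIs were allowed. In library 4 the mesenchymal-like cells had 0 Csf1r UMIs and both other classes lay above them. The part of macrophage RNA in the stromal Csf1r counts was not tested.

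**Figure D3:**
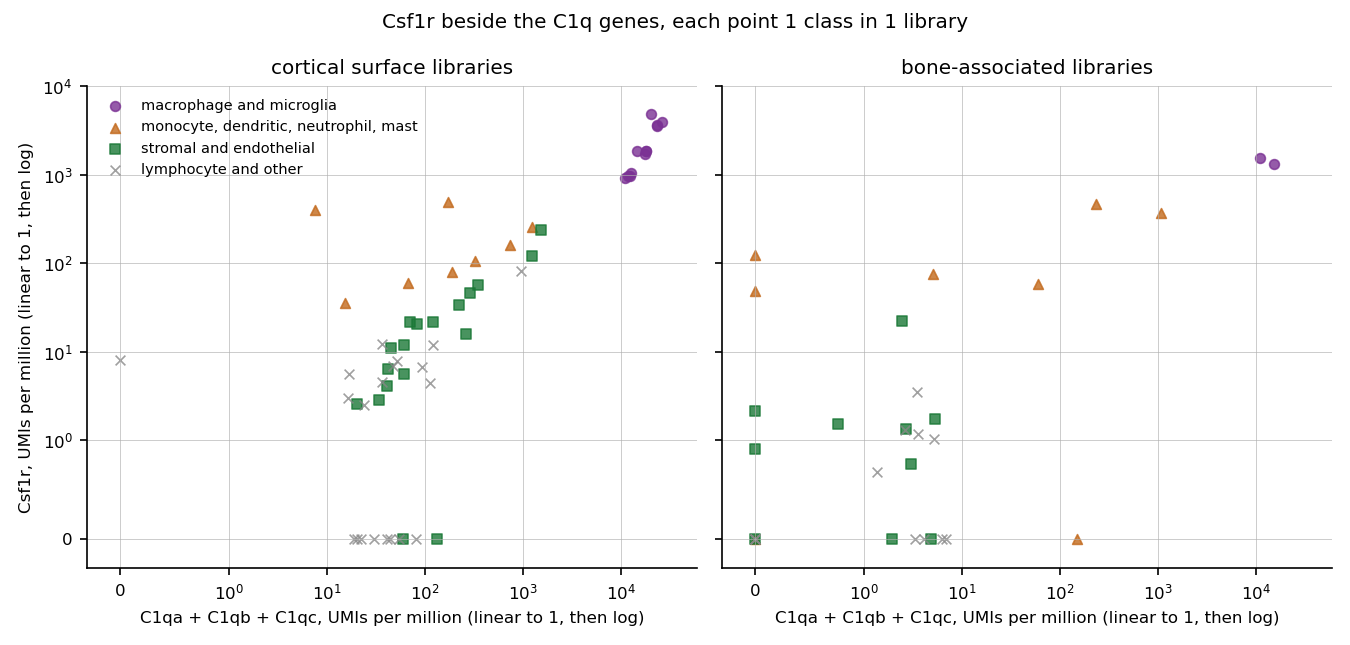
Csf1r against C1q transcripts (C1qa, C1qb and C1qc summed) by cell class and library, in CPM. Each point is 1 class in 1 library, on axes that are linear to 1 and then logarithmic. Pooled, the cortical surface stromal and endothelial points have 13.9 Csf1r UMIs per 100 C1q UMIs. The microglia-like and border macrophage-like points there have 12.9. In the bone-associated libraries the pooled values are 68.75, on 22 Csf1r UMIs, and 9.17.

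Csf2ra, the chain that binds GM-CSF, followed another order of the myeloid classes than Csf1r, though MHC class II macrophage- and monocyte-like cells held both. Bone-associated neutrophil-like cells held 353 and 347 CPM and bone-associated monocyte-like cells 348 and 304. Dendritic-like cells held 265 ± 43.5 in the cortical surface (n = 4, 156 cells) and 197 and 203 in the bone-associated libraries (176 cells, exact permutation p = 0.133, adjusted 0.233), and MHC class II macrophage-like cells 226 ± 30.8 (n = 4). Microglia-like cells, first for Csf1r, stood at 76.3 ± 11.2, and border macrophage-like cells of the cortical surface at 79.0 ± 8.44. Those last classes overlapped (difference 0.37 ± 0.18, log2, edgeR, adjusted p = 0.102). Monocyte-like cells, at 255 and 253 in libraries 3 and 4, exceeded the border macrophage-like cells of those libraries by 1.88 ± 0.21 (edgeR, adjusted p = 3.05e-17), in the opposite direction to Csf1r. This p-value too rests largely on the spread borrowed from other genes.

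Bone-associated border macrophage-like cells held 135 and 115 Csf2ra CPM, above the 68.3 to 86.6 of the 4 cortical surface libraries. The difference of -0.78 ± 0.22 (log2, edgeR, adjusted p = 0.0533) was under the fold limit and also missed the p threshold. The bone-associated preparation had no separate MHC class II macrophage-like class, so the compared border macrophage-like classes may not be alike. Mesenchymal-like cells held 24.7, 23.3, 51.3 and 0 in the cortical surface and 5.28 and 5.95 in the bone-associated libraries, on 55 and 25 UMIs (2.00 ± 0.53, adjusted p = 0.00584). Relative to mesenchymal-like cells of the cortical surface, Csf2ra was called lower in endothelial-like (-1.33 ± 0.43), pericyte-like (-2.24 ± 0.67) and Ccl19 Colec11 stromal cells (-2.25 ± 0.57). The endothelial call was lost without cortical surface library 2 or 3 (-0.89 without library 2), and the pericyte call, on 5 pericyte UMIs, without library 1 (-1.86) or 2 (-2.27). DESeq2 called none of these 3. The call between preparations was lost with cortical surface libraries 3 and 4 alone (adjusted p = 0.0867) and without bone-associated library 2.

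Csf2rb, the common beta chain, led in mast-like cells of the bone-associated preparation, with 292 and 768 CPM (72 cells). Dendritic-like cells there held 180 and 313, above the 72.8 to 100 of the cortical surface (exact permutation p = 0.133, adjusted 0.233). Monocyte-like cells held 166 and 289 in the bone-associated and 49.4 and 72.7 in the cortical surface libraries, and neutrophil-like cells 161 and 194 against 117 and 76.0. In each of these 3 classes the bone-associated libraries lay above the cortical surface ones.

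Border macrophage-like cells followed the same direction, with 193 and 134 Csf2rb CPM in the bone-associated and 77.6, 87.5, 44.9 and 50.6 in the cortical surface libraries. The difference was called at -1.36 ± 0.27 (log2, edgeR, adjusted p = 0.00755), the only call among the 5 members tested (5.35% of all genes). In the same cells the paralog Csf2rb2 gave -0.48 ± 0.36 (adjusted p = 0.494). As for Csf2ra, the class may not hold like cells in both preparations. The Csf2rb difference was -1.07 against cortical surface libraries 1 and 2 alone and -1.81 against libraries 3 and 4 alone, and it lost its call without either bone-associated library or without cortical surface library 3 or 4. Microglia-like cells held 76.5 ± 19.2 (n = 4), and the border macrophage minus microglia difference of 0.09 ± 0.20 (adjusted p = 0.775) was 0.62 with libraries 1 and 2 alone and -0.36 with libraries 3 and 4 alone.

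Endothelial-like cells of the bone-associated preparation had Csf2rb, with 30.5 and 15.98 CPM on 81 UMIs, in 10.7% of 448 cells. Those of the cortical surface had 2.07, 1.41, 0 and 3.996 on 6 UMIs, in 1.07% of 467 cells, and bone-associated T-like cells (median 6410 UMIs per cell, against 7483) had 0 UMIs in 313 cells. The difference was called at -3.44 ± 0.55 (log2, edgeR, adjusted p = 0.000403), with 2 of 5 members tested called against 6.81% of all genes. Thinned to 1500 UMIs the shares were 2.48% and 0.225%. In the bone-associated preparation the cluster led by Selp, F8 and Sele (Selp and Sele encode adhesion proteins of venules) held 60.8 and 33.0 Csf2rb CPM, the clusters led by Btnl9 and by Slc38a5 held 20.6 and 9.54, and 22.7 and 9.81, and an unnamed cluster led by Gkn3 and Gja5, an arterial gene, held 53.1 and 41.3.

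**Figure D4:**
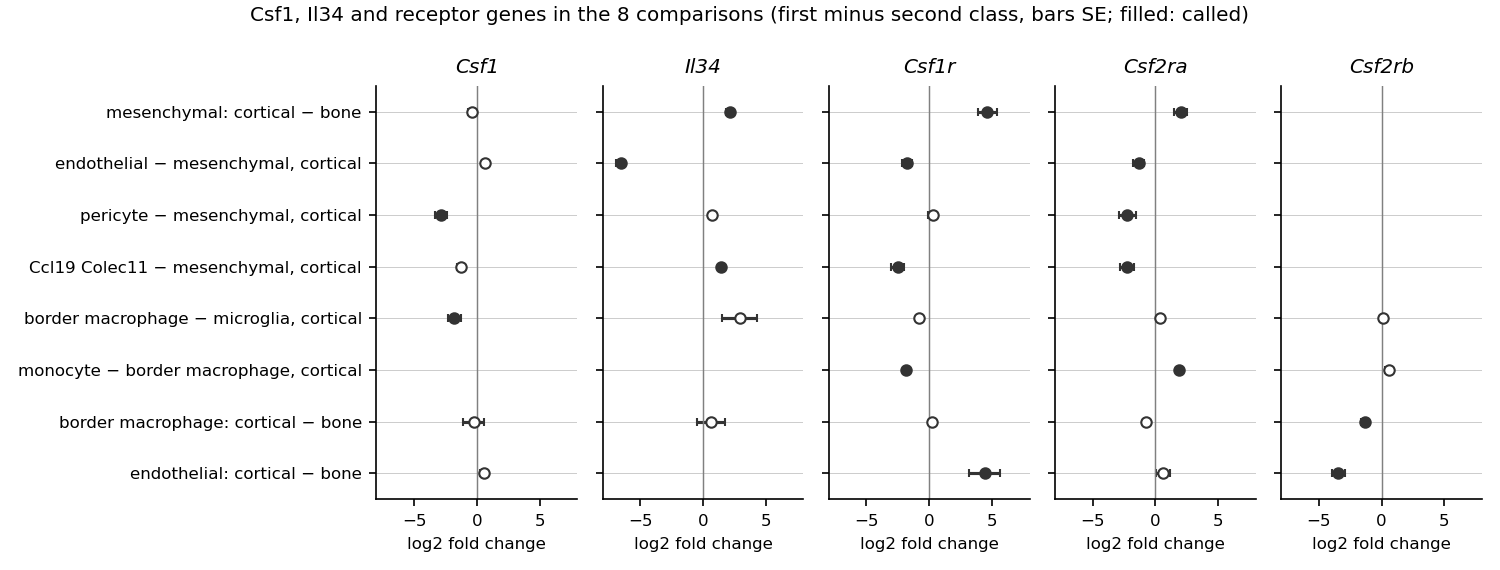
Log2 fold changes of Csf1, Il34 and the receptor genes in the 8 comparisons (edgeR, bars ± SE; filled points are called at an adjusted p under 0.05 and a log2 fold change of at least 1.3). Il34 lies at 2.14 for mesenchymal-like cells of the cortical surface against the bone-associated preparation and at -6.57 for endothelial-like against mesenchymal-like cells.

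Over 35 levels of a class in a preparation, the genes whose log2(CPM + 1) ran most like a member's were compared as a description, since the levels of a preparation share its libraries. Il34 ran most like Heyl, a Notch target of mural cells (Pearson r = 0.964), Prrx1 (0.961) and Slc7a2 (0.960). Csf1r ran most like Adgre1, which encodes the macrophage antigen F4/80 (0.941), Cd68 (0.903) and P2ry6 (0.902), and Csf2rb like its copy Csf2rb2 (0.940), Alox5ap (0.902) and Nlrp3 (0.895). For Csf1 the closest were lower, at 0.716 for Tcf7l1, 0.705 for Dnmbp and 0.696 for Acad12.

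The 38 other genes listed for these pathways (related ligands and receptors, adaptors and signalling proteins, and transcription factors of the myeloid lineage) were read beside the members. Kitl, the ligand of Kit, was by contrast with Il34 high in endothelial-like cells, with 501 ± 87.8 CPM against 5.15 ± 4.11 in mesenchymal-like cells of the cortical surface (difference 6.46 ± 0.32, adjusted p = 4.94e-89). Its receptor gene Kit stood at 115 ± 43.5 in cortical surface mesenchymal-like cells and 1.35 ± 1.91 in the bone-associated ones (5.35 ± 0.52, adjusted p = 5.90e-10). In that mesenchymal comparison 5 of 30 genes tested were higher in the cortical surface and 8 lower, where 5.45% and 9.15% of all genes were (median log2 fold change -0.17, against -0.10 over all genes). Beside Kit the higher ones were Csf3r, Spi1, Trem2 and Tyrobp, all of them myeloid genes, and Trem2 and Spi1 were at 0 in both bone-associated libraries. Trem2 and Spi1 were not called with at least 1000 genes per cell, with up to 20% mitochondrial UMIs, without doublet removal or without bone-associated library 2.

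Among the stromal classes of the cortical surface, 5 of 29 genes tested were higher and 7 lower in endothelial-like than mesenchymal-like cells (12.6% and 13.1% of all genes; median -0.45, against 0.04 over all genes). In pericyte-like cells 4 of 27 were higher and 3 lower (7.45% and 8.62% of all genes; median -0.08, against 0.02). In the Ccl19 Colec11 stromal cells 8 of 28 were higher and 5 lower (8.55% and 10.2% of all genes). Maf, a transcription factor gene, was lower than in mesenchymal-like cells in each, by -4.96 ± 0.24, -4.24 ± 0.26 and -6.08 ± 0.26. Socs3, a feedback inhibitor of cytokine signalling, was higher in pericyte-like (2.74 ± 0.32) and Ccl19 Colec11 stromal cells (4.001 ± 0.25), although the pericyte value was 0.92 without library 2 and -1.40 with libraries 3 and 4 alone, and the stromal value 0.26 with libraries 3 and 4 alone, none of them called. These 3 comparisons share their mesenchymal-like cells.

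In border macrophage-like against microglia-like cells 7 of 31 genes were higher and 5 lower (10.5% and 7.32% of all genes, median 0.16, against 0.04 over all genes). Tfec, a MiT-family transcription factor gene of macrophages (5.72 ± 0.49), and Il3ra, the IL-3 binding chain that pairs with Csf2rb (3.34 ± 0.56, adjusted p = 2.59e-07), were higher. Cish, a target of STAT5 signalling, stood at 6.13 ± 4.61 CPM against 0 in 4 of 4 microglia libraries. In monocyte-like against border macrophage-like cells 4 of 28 were higher and 4 lower (9.04% and 11.8% of all genes, median 0.46, against -0.12), with Plcg2 higher by 2.91 ± 0.33 and Trem2 lower by -2.62 ± 0.21.

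Csf3, which encodes the granulocyte colony-stimulating factor, was at 0 in border macrophage-like and endothelial-like cells of the 4 cortical surface libraries. In the bone-associated preparation it stood at 22.1 ± 31.3 CPM in border macrophage-like and 14.5 ± 13.9 in endothelial-like cells (n = 2, adjusted p = 0.00167 and 0.00375), all of it in 1 of the 2 libraries for the macrophages. DESeq2 called neither, and the endothelial call was lost without bone-associated library 1 and with cortical surface libraries 3 and 4 alone. In border macrophage-like cells 0 of 32 listed genes were higher in the cortical surface and 3 lower (1.07% and 4.29% of all genes), the others being Cish (-2.44 ± 0.45) and Cebpb (-1.91 ± 0.35), neither called without bone-associated library 2. In endothelial-like cells 2 of 31 were higher, Trem2 and Tyrobp, both macrophage genes, and 7 lower (1.92% and 4.9% of all genes), among them Socs3 (-3.83 ± 0.61). The medians were -0.55 and -0.60, against 0.09 and -0.01 over all genes. The endothelial Trem2 call was lost without bone-associated library 2, and the Tyrobp call without either bone-associated library.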

How the data were processed

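The authors aligned the reads with Cell Ranger (submitters' processing notes: version 3, build mm10; the file headers name a later release) and deposited filtered matrices of raw UMI counts per cell and gene, 1 per library; how reads shared by paralogs were treated is not given in the sources used here. From these, barcodes with 500 genes or more and no more than 10% mitochondrial UMIs were kept and 124 doublets removed by a simulation-based score at 0.8% per 1000 cells. Each preparation was clustered by itself (2000 variable genes, 30 principal components, 15 neighbours, leidenalg 0.10.2, resolution 1.5) without batch integration. The members, the listed pathway genes, mitochondrial and hemoglobin genes were left out of the variable genes used for clustering. The members, pathway genes and mitochondrial genes were not markers either. Hemoglobin genes did serve in naming, as markers of the erythroid-like class, which also needed a high share of hemoglobin UMIs. A class needed at least 3 leading markers, except the Ccl19 Colec11 stromal class, which needed Ccl19 and Colec11 to lead. A sub-cluster with no marker of its class among its 10 top genes stayed unnamed.

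UMI counts were summed per library and class (at least 10 cells) and tested with edgeR 4.0.16 quasi-likelihood fits, TMM scaling, at least 10 UMIs per gene over the libraries compared, and Benjamini-Hochberg adjustment. Library was a block in comparisons of classes within the cortical surface, whose samples share the animals; there the deviations of the pairs correlated at 0.0526 to 0.301. On simulated data, 183 to 196 of 200 genes changed by a log2 fold of 3 were recovered, with 0 to 20 wrong calls. The changed genes were drawn from those with at least 50 UMIs, so this recovery does not cover genes with fewer UMIs or smaller changes. Total UMIs were 8408685 to 56169736 per cortical surface and 12041325 and 27511208 per bone-associated library. A count of 3 was taken as the floor and intervals are exact at 95%. DESeq2 1.42.0 was an alternative. The named genes are the members, at most 4 called pathway genes per comparison by size, and the 3 genes most like each of 4 members over genes with at least 50 UMIs. The members and lists were chosen with earlier results of these data known. The labels' protocol text describes another dissection and enzyme than the study's methods, which were followed here for what the preparations are.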

Additional observations from a re-analysis of the deposited data

Results flagged for a closer look

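Among 30 class levels with 4 cortical surface libraries each, 4 had a library far from the other 3 by the ratio of its gap to the group's range; chance gives about 1 in 20 such groups. Csf1r in pericyte-like cells was 237 CPM in library 3, from 31 UMIs in 2 of 32 cells, against 20.7 to 33.3 in the others. Csf2ra in MHC class II macrophage-like cells was 272 in library 4, on 290 UMIs, against 209 to 215. Csf1 in microglia-like cells was 20.8 in library 1, on 3 UMIs in 22 cells, against 14.3 to 15.3. Csf1 in MHC class II macrophage-like cells was 9.61 in library 3, on 7 UMIs, against 1.88 to 3.11. What sets these values apart was not tested.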

How the results depend on the processing

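Of 1064 alternative values for the members and named genes, 967 kept their direction and side of the threshold, 73 lost a call, 9 gained one and 15 changed direction. Of 137 alternative counts of called genes 118 stayed within 1.5 times, and of 469 alternative levels 411 moved by less than the spread between libraries. With DESeq2 the mesenchymal comparison between preparations gave 1082 called genes (main count 1837), the pericyte comparison 1215 (1834), the Ccl19 Colec11 stromal comparison 1428 (2159) and the monocyte comparison 671 (1934). With cells thinned to 1500 UMIs, and so fewer counts, the calls were 869 for mesenchymal cells between preparations, 1783 for endothelial against mesenchymal (3130), 1034 for pericytes, 1087 for Ccl19 Colec11 stromal cells, 1315 for border macrophages against microglia (2130), 641 for monocytes and 201 for border macrophages between preparations (618). Thinning also moved Csf2ra in monocytes to 1.38, Csf2rb in border macrophages between preparations to -1.08 and in endothelial cells to -3.23, all without a call, and turned the uncalled Csf2ra and Csf2rb differences of border macrophages from microglia to -0.0177 and -0.0824. With genes seen in over 10% of cells, the border macrophage against microglia count was 1315.

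Cortical surface libraries 3 and 4 alone, an alternative chosen after seeing the data, gave 1136, 1627, 913 and 1078 calls in the mesenchymal, endothelial, pericyte and Ccl19 Colec11 stromal comparisons, left Csf1 in pericytes at -2.91 without a call, and turned Csf2rb (border macrophages against microglia) to -0.36 and Socs3 (pericytes) to -1.40. Libraries 1 and 2 alone gave -1.07 for Csf2rb in border macrophages between preparations, not called, and -0.55 for Csf1r in pericytes. Csf1 in the Ccl19 Colec11 stromal cells crossed the fold limit with upper-quartile scaling (-1.33), at least 1000 genes (-1.32), 20% mitochondrial UMIs (-1.31) and no replicate block (-1.37). The uncalled Csf1r difference of pericytes turned to -0.32 with at least 1000 genes, -0.52 with 20% mitochondrial UMIs and -1.298 without doublet removal. Without doublet removal Csf1r in endothelial against mesenchymal cells was 0.0399. At 20% mitochondrial UMIs Csf1r and Spi1 in the Ccl19 Colec11 stromal cells were 0.10 and 0.037, and Csf1 in border macrophages between preparations 0.24 (0.11 at resolution 1.0). The causes were not tested.

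The replicate numbers of the preparations name libraries of different tissue and were not used to pair them. By replicate number the deviations correlated at 0.0152 to 0.219. That range overlaps the 0.0526 to 0.301 of classes from the same library, so it cannot show whether the preparations pair. A replicate block moved Csf2rb in border macrophages between preparations to -1.06, under the fold limit, and took the call of Csf1r in endothelial cells (2.41, adjusted p = 0.213).

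Leaving out 1 library gave 1203 to 1851 calls for mesenchymal cells, 266 to 622 for border macrophages and 440 to 816 for endothelial cells between preparations, each lowest without bone-associated library 2. Csf1 in the Ccl19 Colec11 stromal cells ran from -1.87 to -0.79, Il34 there from 1.29 to 1.44, Csf2rb against microglia from -0.25 to 0.36, Csf2rb in border macrophages between preparations from -1.56 to -1.24, and Csf1r in pericytes from -0.0611 to 0.92. The monocyte comparison without a library could not be fitted, having 1 library left. Depth limits Csf2rb in endothelial cells (6 and 81 UMIs), Csf1 in pericytes (8 and 10) and Csf1r in stromal and endothelial classes (1 to 72).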
